A study of Mus musculus with 4 samples.

Results

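The 2 metallothionein genes Mt1 and Mt2, the transcription factor gene Nfe2l2 (NRF2), the gene of its partner Keap1, and 6 genes known as NRF2 targets (Hmox1, Nqo1, Gclc, Gclm, Txnrd1 and Srxn1) were followed in RNAseq profiles of Lewis lung carcinoma (LLC) tumors. These 10 genes were chosen by name, as antioxidant and metal-binding genes, and each has its own entry among the 47729 genes of the deposited table. LLC is a tumor cell line of C57BL/6 origin that was grafted under the skin of the back of syngeneic C57BL/6 mice, with tumors taken on day 5. In the LLC-Chem group the grafted cells had been transfected with a pEFIN plasmid encoding murine chemerin (1-157), a bioactive form of this chemoattractant protein, and in the LLC group the labels call the cells wild type, while the study's text also mentions an empty vector. Each group was measured as 2 pools of 3 tumors, and the transfected lines were collected as individual clones after drug selection, so that clone and chemerin cannot be told apart. The tumors also hold host cells, and in such bulk samples fewer cells of a type and less RNA per cell cannot be told apart either. The mice were 6 to 10 weeks old unless otherwise stated.

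NRF2 is a transcription factor that is held in the cytoplasm and sent for degradation by KEAP1, a sensor that loses its grip on NRF2 when its cysteines react with oxidants or electrophiles. Freed NRF2 enters the nucleus, pairs with a small MAF protein and binds antioxidant response elements in the promoters of genes for glutathione synthesis, the thioredoxin system, NADPH supply and detoxification, while BACH1 competes for the same elements. Metallothioneins are small cysteine-rich proteins that bind zinc and copper and scavenge oxidants. Their genes are switched on by the zinc-sensing factor MTF-1 through metal response elements, and also by glucocorticoids and in hypoxia.

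Values are RPM, read counts per gene that the authors scaled to the same total in every library before they deposited them. The library totals, recovered from the spacing of the values, ran from 28470000 to 33990000 reads, and 3 reads, used here as the detection floor, correspond to 0.0883 to 0.105 RPM (counting error only). The groups were compared with limma on log2(RPM + 0.5), two-sided, over 13694 genes whose mean reached 1 RPM, and a gene was called at a Benjamini-Hochberg adjusted p under 0.05. All 10 genes passed this limit on low values. With 2 pools against 2, the smallest p that an exact permutation test allows for 1 gene is 0.33. The p-values of limma set the difference between the groups against the spread between pools. That spread is estimated for each gene with weight borrowed from the other genes tested. The chemerin gene Rarres2 was at 102.2 and 98.2 RPM in LLC tumors against 105.9 and 105.8 RPM in those labelled LLC-Chem (log2 fold change 0.08, limma adjusted p = 0.541) and was not called. Among epithelial and lung markers, Krt8 lay between 82.8 and 167 RPM and Krt18 between 110.0 and 139 RPM in the 4 pools, whereas Epcam was at 0.200 RPM or less, Sftpc at 0.0999 RPM or less and Nkx2-1 at 0 RPM in every pool.

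Both metallothionein genes were higher in the LLC-Chem tumors, the 2 of the 10 genes that were called. Over all genes tested, 9.54% were called higher and 13.5% lower. None of the 10 genes was called lower by limma or by edgeR's quasi-likelihood test, and edgeR's likelihood ratio test and DESeq2 each called 1 gene lower. By each of the first 2 tests, 4 of the 10 were lower and 3 higher at an unadjusted p under 0.05. Over all 13694 genes tested, limma had 3208 lower and 2459 higher at that limit. Both LLC-Chem pools lay above both LLC pools for 3 of the 10 genes (33.1% of all genes tested) and below them for 4 (39.3%), and for the other 3 the groups overlapped.

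**Figure D1:**
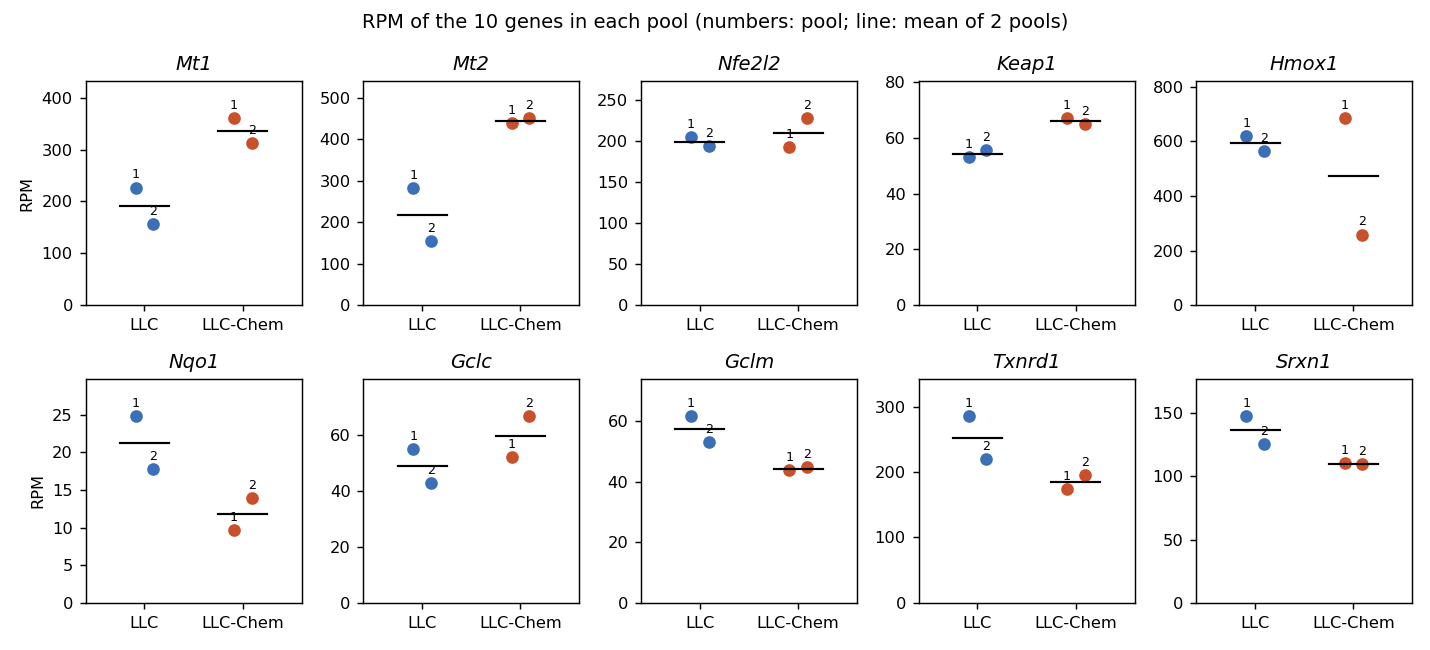
RPM (linear axis from 0, one panel per gene) of the 10 genes in the 2 LLC and 2 LLC-Chem pools, with pool numbers beside the points and a line at each group mean. The groups are separate for Mt1, Mt2 and Keap1, with LLC-Chem higher, and for Nqo1, Gclm, Txnrd1 and Srxn1, with LLC-Chem lower, while the LLC-Chem pools of Hmox1 lie at 685 and 259 RPM.

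Mt1 (ENSMUSG00000031765, chromosome 8 of GRCm38, 94179082 to 94180327, plus strand) was at 227 and 156 RPM in LLC tumors against 360.2 and 313 RPM in LLC-Chem tumors. Every LLC-Chem pool was thus above every LLC pool. The means were 191 ± 50.4 RPM and 337 ± 33.2 RPM (SD, n = 2 each), a ratio of 1.76 and a log2 fold change of 0.84 ± 0.20 (SE, 95% interval 0.34 to 1.33, limma adjusted p = 0.0376, 0.000446 to 0.219 over the alternatives). Mt2 (ENSMUSG00000031762, chromosome 8, 94172664 to 94173568, plus strand) was at 281 and 155 RPM in LLC tumors against 438 and 449.7 RPM in LLC-Chem tumors. The LLC-Chem pools of Mt2 were close together and above both LLC pools, which themselves differed by a factor of 1.82. Its means were 218 ± 89.6 RPM and 444 ± 8.52 RPM (SD, n = 2 each), a ratio of 2.04 and a log2 fold change of 1.09 ± 0.28 (SE, 95% interval 0.40 to 1.77, limma adjusted p = 0.0445, 0.000652 to 0.271 over the alternatives). Without LLC pool 2, the lower of the LLC pools for both genes, the log2 fold change was 0.56 for Mt1 and 0.66 for Mt2, and without LLC pool 1 it was 1.11 and 1.52. Neither gene was called when any of the 4 pools was left out (adjusted p from limma between 0.0764 and 0.271), a setting in which limma called from 0 to 4 genes higher in the whole table. Mt2 is also part of a list of hypoxia genes that the study drew from these same libraries, so its rise is not independent of that list.

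The metallothionein genes lie in a cluster in the order Mt4, Mt3, Mt2 and Mt1. Mt3, the brain form, measured from 0.250 to 0.550 RPM in the 4 pools, and Mt4, the form of stratified epithelia, from 0 to 0.0999 RPM. These were below the limit for testing and were named after their values were seen. Per length of annotated exons, the level of Mt2 was 371 RPM per kb in LLC and 755 RPM per kb in LLC-Chem tumors, against 154 and 270.3 RPM per kb for Mt1, whose annotated exons include an unspliced transcript that covers the whole gene. None of the 50-base words of the Mt1 and Mt2 transcripts occurs in a transcript of another gene. In GENCODE M21, however, 73.5% of the exon bases of Mt2 lie under Gm45774 on the other strand. Gm45774 has no entry of that name among the deposited genes and so no value here. Whether counting used strand is not given in the sources used here, and without strand the reads of the pair cannot be told apart.

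The promoters of the genes that rose, Mt1 and Mt2, are shown because this pair moved together. They are from RefSeq on GRCm38.p6, plus strand, bases -230 to 30 counted from the start annotated by RefSeq. For Mt2 this start lies upstream of the GENCODE M21 start given above (94172664), so that its whole stretch ends before that position. Capitals mark the core of the metal response element on either strand (TGCACNC or TGCGCNC). RefSeq promoters were found for 8 of the 10 genes, all but Hmox1 and Gclc.
Mt1, chr8:94178859-94179118: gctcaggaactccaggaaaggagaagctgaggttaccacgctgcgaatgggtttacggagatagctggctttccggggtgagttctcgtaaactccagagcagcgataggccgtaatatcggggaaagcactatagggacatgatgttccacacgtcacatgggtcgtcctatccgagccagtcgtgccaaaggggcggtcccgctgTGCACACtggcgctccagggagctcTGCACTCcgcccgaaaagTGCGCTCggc
Mt2, chr8:94172388-94172647: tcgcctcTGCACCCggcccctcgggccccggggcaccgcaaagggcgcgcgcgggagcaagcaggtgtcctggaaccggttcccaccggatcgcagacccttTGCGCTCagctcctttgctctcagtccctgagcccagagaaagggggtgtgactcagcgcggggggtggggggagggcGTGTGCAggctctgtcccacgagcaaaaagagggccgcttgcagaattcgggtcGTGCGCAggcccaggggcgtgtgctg
In windows of 300 bases (250 before and 50 after the start), Mt1 held 3 such cores and Mt2 held 4, but Gclm, whose LLC-Chem values were the lower ones, also held 3, and Srxn1 held 1. At least 1 core was found in 25.7% of all 32851 promoters, at least 2 in 7.11% and at least 4 in 0.517%. Besides these, the Mt1 promoter held the letters ACGTG, the core bound by hypoxia-inducible factors, at -79 to -75 on the opposite strand (19.6% of all promoters hold it on either strand), as did Keap1 and Gclm at other positions. Mt2 held the letters TGACNNNGC, the core of the antioxidant response element, at -79 to -71 (12.4% of all promoters on either strand). These matches describe the letters only, and cores outside these windows were not counted.

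Neither Nfe2l2 nor Keap1 was called. Nfe2l2 (chromosome 2, 75675513 to 75704641, minus strand), which encodes NRF2, was at 205 and 194 RPM in LLC tumors against 193 and 228 RPM in LLC-Chem tumors. The groups overlapped, and the log2 fold change was 0.07 with a 95% interval of -0.22 to 0.37 (SE 0.12, limma adjusted p = 0.668). Since NRF2 is controlled mainly through the stability of the protein, its mRNA level does not measure its activity. Keap1 (chromosome 9, 21229730 to 21239361, minus strand) was at 53.2 and 55.6 RPM in LLC tumors against 67.0 and 65.1 RPM in LLC-Chem tumors. Pools of a group lay close together and the groups did not overlap, with means of 54.4 ± 1.73 RPM and 66.1 ± 1.34 RPM (SD, n = 2 each), but Keap1 was not called (log2 fold change 0.28, SE 0.10, 95% interval 0.04 to 0.52, limma adjusted p = 0.0900). Of its exon bases, 10.9% lie under Gm16754 on the other strand. Gm16754 was at 2.80 and 1.65 RPM in LLC tumors against 7.35 and 8.75 RPM in LLC-Chem tumors (log2 fold change 1.68, limma adjusted p = 0.0181), and its part in the Keap1 value was not tested.

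**Figure D2:**
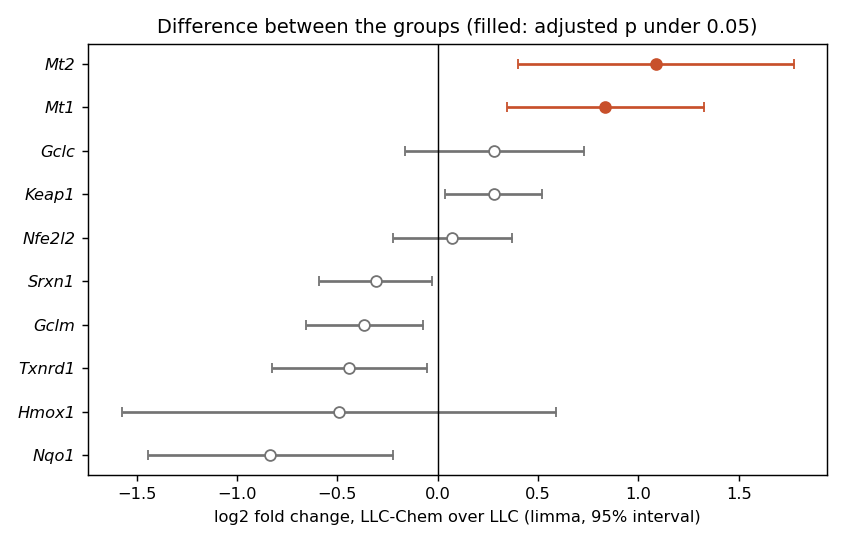
Log2 fold change of each of the 10 genes (horizontal axis, LLC-Chem over LLC, limma on log2(RPM + 0.5)) with its 95% interval, where filled points have an adjusted p under 0.05. Mt2 at 1.09 and Mt1 at 0.84 are filled, and Nqo1 at -0.83 is the lowest.

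Other genes of NRF2 control were taken from a list of 13, of which 12 could be tested. Among these 1 was called higher and 1 lower (8.33% each), where 9.54% and 13.5% of all genes were. The median log2 fold change of the list was 0.23 where all genes had -0.04. Nfe2l1, a relative of NRF2 that drives proteasome genes, was at 186 and 176 RPM in LLC and 247 and 241 RPM in LLC-Chem tumors, and was called higher (log2 fold change 0.43, SE 0.10, limma adjusted p = 0.0342). Bach1, the repressor of antioxidant response elements and of Hmox1 in particular, was at 88.4 and 90.3 RPM in LLC and 68.1 and 59.8 RPM in LLC-Chem tumors, and was called lower (log2 fold change -0.48, SE 0.11, limma adjusted p = 0.0340). The most abundant of the genes not called were Sqstm1, whose product p62 binds KEAP1 (log2 fold change 0.36, limma adjusted p = 0.0791), the small MAF gene Mafg (0.38, adjusted p = 0.152) and Cul3, the ubiquitin ligase scaffold that works with KEAP1 (0.10, adjusted p = 0.480).

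Of the 6 NRF2 target genes, Nqo1, Gclm, Txnrd1 and Srxn1 had both LLC-Chem values below both LLC values, but none passed the test. Over all genes tested, 39.3% were ordered in this way. Nqo1 (chromosome 8, 107388225 to 107403206, minus strand), a quinone reductase widely used as a readout of NRF2, was at 24.8 and 17.8 RPM in LLC tumors against 9.64 and 13.9 RPM in LLC-Chem tumors. Its means were 21.3 ± 4.98 RPM and 11.8 ± 3.0 RPM (SD, n = 2 each), a ratio of 0.552 and a log2 fold change of -0.83 (SE 0.25, 95% interval -1.45 to -0.22, limma adjusted p = 0.0608). On the recovered reads, Nqo1 was called lower by DESeq2 (adjusted p = 0.0221) and by the likelihood ratio test of edgeR (adjusted p = 0.0209), but not by edgeR's quasi-likelihood test (adjusted p = 0.0677). Txnrd1 (chromosome 10, 82833951 to 82897712, plus strand), the cytosolic thioredoxin reductase, was at 285 and 219 RPM in LLC tumors against 174 and 195 RPM in LLC-Chem tumors. Its log2 fold change was -0.44 (SE 0.15, 95% interval -0.83 to -0.05, limma adjusted p = 0.0907), and -0.25 without LLC pool 1. Srxn1 (chromosome 2, 152105516 to 152111376, plus strand), which encodes sulfiredoxin and repairs overoxidized peroxiredoxins, was at 148 and 126 RPM in LLC tumors against 111 and 109 RPM in LLC-Chem tumors. The LLC-Chem pools of Srxn1 nearly coincided, and the log2 fold change was -0.31 (SE 0.11, 95% interval -0.59 to -0.03, limma adjusted p = 0.0999), and -0.19 without LLC pool 1.

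Glutathione is made by glutamate-cysteine ligase, whose catalytic subunit is encoded by Gclc and whose modifier subunit is encoded by Gclm. Gclm (chromosome 3, 122245557 to 122270732, plus strand) was at 61.6 and 53.1 RPM in LLC tumors against 43.7 and 44.9 RPM in LLC-Chem tumors, a log2 fold change of -0.37 (SE 0.12, 95% interval -0.66 to -0.07, limma adjusted p = 0.0733). Gclc (chromosome 9, 77754535 to 77794485, plus strand) was at 54.9 and 42.6 RPM in LLC tumors against 52.1 and 66.6 RPM in LLC-Chem tumors, and its groups overlapped (log2 fold change 0.28, SE 0.18, 95% interval -0.16 to 0.73, limma adjusted p = 0.276), with 0.10 without LLC pool 2, 0.11 without LLC-Chem pool 2, 0.46 without LLC pool 1 and 0.46 without LLC-Chem pool 1. Taken within each pool, which removes any scaling between pools, the Gclc to Gclm ratio of RPM was 0.891 and 0.803 in the LLC pools and 1.19 and 1.48 in the LLC-Chem pools. Per length of annotated exons, the mean level of Gclc was above that of Gclm in both groups, at 12.9 against 9.11 RPM per kb in LLC and 15.8 against 7.04 RPM per kb in LLC-Chem tumors. For Gclm, 3.92% of the 50-base words also occur in other genes, among them Ppia, and for the other 9 genes 0%. Gm17494 on the other strand and Gm6061 on the same strand overlap 4.71% of its exon bases, at 1.30 to 2.05 RPM and at 0 RPM in every pool.

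Stretches of the Gclm and Txnrd1 promoters are shown because each holds the core of the antioxidant response element (TGACNNNGC) on the opposite strand, here in capitals. Both are bases -150 to -1 from the annotated start, RefSeq on GRCm38.p6, plus strand, and the Txnrd1 stretch belongs to the second of its 3 annotated starts.
Gclm, chr3:122245407-122245556: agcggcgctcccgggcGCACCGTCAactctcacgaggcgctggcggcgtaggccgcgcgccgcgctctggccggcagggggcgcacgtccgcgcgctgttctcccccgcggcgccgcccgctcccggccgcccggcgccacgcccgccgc
Txnrd1, chr10:82859056-82859205: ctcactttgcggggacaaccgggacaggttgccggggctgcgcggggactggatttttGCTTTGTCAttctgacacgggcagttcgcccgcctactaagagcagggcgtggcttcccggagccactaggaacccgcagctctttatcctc
The core was found in 5 of the 8 genes with a promoter sequence (Mt2, Nfe2l2, Gclm, Txnrd1 and Srxn1) and in 12.4% of all promoters. In these windows it was not found for Mt1, Keap1 and Nqo1.

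**Figure D3:**
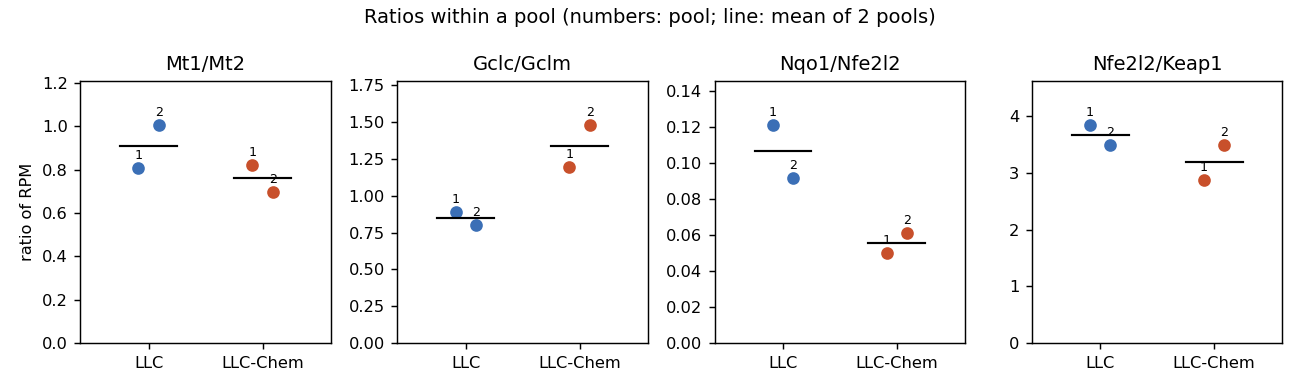
Ratio of the RPM of 2 genes within each pool (vertical axis from 0, one panel per ratio), with pool numbers and a line at each group mean. Gclc/Gclm runs from 0.803 to 0.891 in LLC and from 1.19 to 1.48 in LLC-Chem pools, and Nqo1/Nfe2l2 from 0.0918 to 0.121 in LLC and from 0.05 to 0.061 in LLC-Chem pools.

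The ratio of Nqo1 to Nfe2l2 RPM was 0.121 and 0.0918 in the LLC pools and 0.05 and 0.061 in the LLC-Chem pools, and that of Txnrd1 to Nfe2l2 was 1.39 and 1.13 against 0.902 and 0.857. Both ratios were thus lower in LLC-Chem tumors, as were the values of these targets themselves, and limma called none of these genes. Ratios to Nfe2l2 were not taken for the other targets, of which Gclc and Hmox1 overlapped between the groups. The ratio of Nfe2l2 to Keap1 overlapped between the groups (3.85 and 3.49 against 2.88 and 3.50), as did that of Mt1 to Mt2 (0.807 and 1.01 against 0.823 and 0.697).

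Hmox1 (chromosome 8, 75093621 to 75100589, plus strand), which encodes the inducible heme oxygenase that opens heme to biliverdin, iron and carbon monoxide, differed widely between the LLC-Chem pools. Its level was 621 and 566 RPM in LLC tumors, 685 RPM in LLC-Chem pool 1 and 259 RPM in LLC-Chem pool 2, a spread of 2.64 times between pools of the same group. Its log2 fold change was -0.49 (SE 0.43, 95% interval -1.57 to 0.59, limma adjusted p = 0.423), and it turned to 0.21 without LLC-Chem pool 2 (adjusted p = 0.598) and reached -1.19 without LLC-Chem pool 1 (adjusted p = 0.0678). Markers of cells that handle heme differed between these pools as well. The summed level of 8 macrophage markers was 1492 and 1755 RPM in the LLC pools, 1239 RPM in LLC-Chem pool 1 and 795 RPM in LLC-Chem pool 2, and that of 6 erythroid markers was 115, 46.1, 143 and 4.25 RPM in the same order. None of the macrophage markers was at 0, and 2 of the 8 (Csf1r and Fcgr1, 25%) were called lower and 0 higher, where 13.5% and 9.54% of all genes were. Of the 5 erythroid markers tested, 0 were called (limma adjusted p = 0.437 to 0.674). The part of these cells in the Hmox1 value was not tested. Per length of annotated exons Hmox1, at 339 RPM per kb in LLC tumors, had a level near that of Mt2, and Nqo1, at 13.7 RPM per kb, Gclc at 12.9, Keap1 at 11.6 and Gclm at 9.11 were the lowest of the 10 genes.

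**Figure D4:**
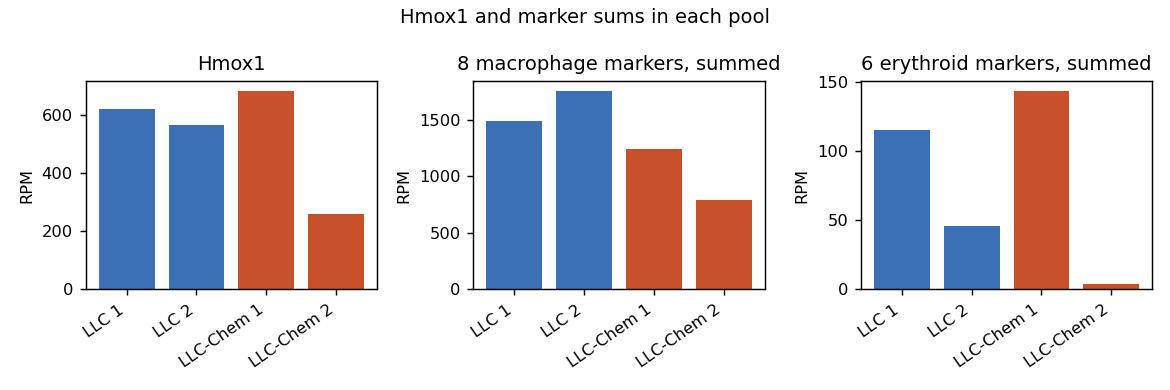
RPM (vertical axes from 0) of Hmox1, of 8 macrophage markers summed and of 6 erythroid markers summed in each of the 4 pools. All 3 are lowest in LLC-Chem pool 2, at 259, 795 and 4.25 RPM.

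The wider antioxidant network was described through 8 lists with 96 genes in all, of which 86 could be tested. Among these 21 genes (24.4%) were called lower, where 13.5% of all genes were, and 5 genes (5.81%) were called higher, where 9.54% were. Both LLC-Chem pools lay below both LLC pools for 48 of the 86 genes (39.3% over all genes tested). The median of their log2 fold changes was -0.29, and that of all genes -0.04. Of these 26 calls, 26 were kept by DESeq2 and 25 by edgeR's quasi-likelihood test on the recovered reads. By limma without trend 16 were kept, with a block for the replicate number 13, and without a filter on low values 0. With any 1 of the 4 pools left out, log2 fold changes ran, for example, from 0.81 to 0.93 for Prdx4, from -1.49 to -1.14 for Mgst1 and from -0.90 to -0.77 for Nqo2. The ranges were wider for other called genes, such as -1.99 to -1.10 for Gpx3, 1.05 to 1.74 for Aox1 and -1.02 to -0.61 for Cat. How many calls were kept in that setting is given in the closing section.

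**Figure D5:**
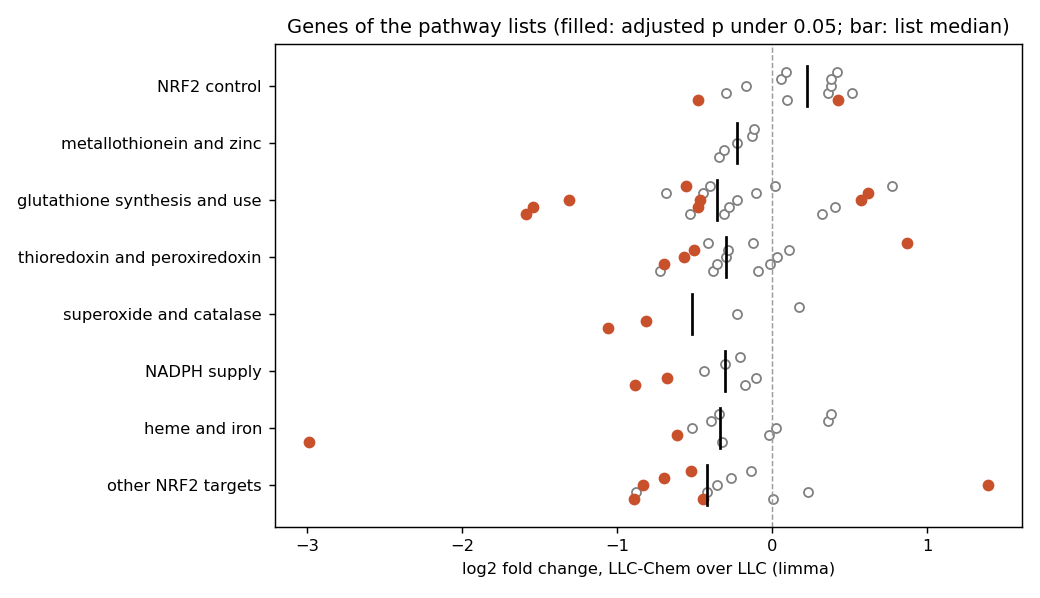
Log2 fold change (horizontal axis, LLC-Chem over LLC, limma) of the 86 tested genes in 8 pathway lists, with a bar at each list's median and filled points for an adjusted p under 0.05. Of the filled points 21 lie below 0 and 5 above, and the median is above 0 only for the list of NRF2 control.

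In the list on glutathione synthesis and use, 6 of 20 tested genes (30%) were called lower and 2 (10%) higher, where 13.5% and 9.54% of all genes were. Gpx7, a peroxidase of the endoplasmic reticulum, went from 30.1 and 53.2 in LLC to 13.2 and 12.7 RPM in LLC-Chem tumors (log2 fold change -1.59, SE 0.27, limma adjusted p = 0.0202), and its relative Gpx8 from 88.0 and 93.1 to 61.0 and 62.0 RPM (log2 fold change -0.55, limma adjusted p = 0.0206). Gpx3, the secreted glutathione peroxidase, fell, with 261 and 484 RPM in LLC and 141 and 105 RPM in LLC-Chem pools (log2 fold change -1.55, SE 0.31, limma adjusted p = 0.0270). Mgst1, a membrane-bound glutathione transferase, fell, with 71.3 and 70.6 RPM in LLC and 32.0 and 24.9 RPM in LLC-Chem pools (log2 fold change -1.31, SE 0.15, limma adjusted p = 0.0117). Mgst3 and Gsto1 were also called lower, with log2 fold changes of -0.47 and -0.48 (limma adjusted p = 0.0344 and 0.0420). The cytosolic transferase genes Gstm1 (73.8 and 86.9 to 122 and 124 RPM, log2 fold change 0.62, limma adjusted p = 0.0239) and Gstp1 (139.6 and 118 to 182 and 200.2 RPM, log2 fold change 0.57, limma adjusted p = 0.0315) rose instead. Both have close copies, with 18.9% of the 50-base words of Gstm1 and 33.7% of those of Gstp1 found in other genes, so that their counts are uncertain. Gpx1, the most abundant gene of the list, was at 417 and 609 RPM in LLC and 346 and 284 RPM in LLC-Chem tumors and was not called (log2 fold change -0.68, limma adjusted p = 0.0667), and neither was Gpx4, which guards membranes against lipid peroxidation (-0.28, adjusted p = 0.0906).

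The thioredoxin and peroxiredoxin list had 3 of 15 genes (20%) called lower and 1 (6.67%) higher, where 13.5% and 9.54% of all genes were. Prdx1, the main cytosolic peroxiredoxin, fell, with 940.4 and 781 RPM in LLC and 562 and 493 RPM in LLC-Chem pools (log2 fold change -0.70, SE 0.15, limma adjusted p = 0.0315). Txnrd2, the mitochondrial thioredoxin reductase, was called lower (log2 fold change -0.51, limma adjusted p = 0.0472), a call lost with TMM scaling (limma adjusted p = 0.0503) and by edgeR's quasi-likelihood test (adjusted p = 0.051). Sesn2, a stress-induced sestrin, was called lower as well (log2 fold change -0.57, limma adjusted p = 0.0359). Prdx4, the peroxiredoxin of the endoplasmic reticulum, rose from 117 and 117 in LLC to 206 and 223 RPM in LLC-Chem tumors (log2 fold change 0.87, SE 0.10, limma adjusted p = 0.0117). Txn1, the main cytosolic thioredoxin, was not called (log2 fold change -0.29, adjusted p = 0.288). Among the 4 superoxide and catalase genes, Sod3, the extracellular dismutase, fell, with 136 and 175 RPM in LLC and 85.4 and 63.8 RPM in LLC-Chem pools (log2 fold change -1.06, adjusted p = 0.0223), and so did catalase (Cat), from 76.7 and 83.3 to 52.2 and 39.2 RPM (log2 fold change -0.81, limma adjusted p = 0.0262). Sod1 and Sod2 were not called (log2 fold change -0.22 and 0.17, limma adjusted p = 0.126 and 0.518).

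In the list on NADPH supply, 2 of 7 genes (28.6%) were called lower and 0 higher, where 13.5% and 9.54% of all genes were. All 7 had a log2 fold change below 0, as did 53.7% of all genes tested. G6pdx, the first enzyme of the pentose phosphate pathway, fell, with 92.2 and 100.5 RPM in LLC and 56.4 and 47.5 RPM in LLC-Chem pools (log2 fold change -0.89, SE 0.12, limma adjusted p = 0.0144), and so did Taldo1, its transaldolase, from 184 and 156 to 113 and 98.4 RPM (log2 fold change -0.68, limma adjusted p = 0.0250). Pgd, Tkt and Idh1 were not called (limma adjusted p = 0.203, 0.206 and 0.162). In the list on heme and iron, 2 of 10 genes (20%) were called lower, where 13.5% of all genes were. Slc40a1 encodes ferroportin, the exporter through which macrophages release iron, and fell, with 19.4 and 18.1 RPM in LLC and 3.05 and 1.15 RPM in LLC-Chem pools (log2 fold change -2.99, SE 0.37, limma adjusted p = 0.0130), the lowest log2 fold change of the 86 genes. Blvrb, a biliverdin reductase, was called lower (log2 fold change -0.61, limma adjusted p = 0.0231). The ferritin genes Fth1 (3059 and 2638 to 2351 and 2183 RPM) and Ftl1 (2110.1 and 2428 to 1800.3 and 1393 RPM) were not called (limma adjusted p = 0.254 and 0.119), and 50.9% of the 50-base words of Ftl1 occur in copies of it.

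Of 13 further NRF2 targets, 5 (38.5%) were called lower and 1 (7.69%) higher, where 13.5% and 9.54% of all genes were. Those lower were Ptgr1 (log2 fold change -0.89, limma adjusted p = 0.0144), Nqo2, the close relative of Nqo1 (-0.83, adjusted p = 0.0143), Ephx1, the microsomal epoxide hydrolase (-0.70, adjusted p = 0.0333), Ugdh, which makes UDP-glucuronate (-0.53, adjusted p = 0.0317), and the transporter gene Abcc4 (-0.45, adjusted p = 0.0478). Nqo2 went from 50.5 and 55.2 in LLC to 30.6 and 28.2 RPM in LLC-Chem tumors, and Ptgr1 from 64.9 and 66.2 to 38.4 and 32.1 RPM. Aox1, an aldehyde oxidase, rose from 14.5 and 15.5 in LLC to 31.6 and 51.3 RPM in LLC-Chem tumors (log2 fold change 1.39, SE 0.24, limma adjusted p = 0.0202). The aldo-keto reductase gene Akr1b8 was not called (log2 fold change -0.13, adjusted p = 0.397). In the list on metallothioneins and zinc, apart from Mt1 and Mt2, 0 of 5 tested genes were called by limma. Mtf1, the factor that binds metal response elements, was at 24.4 and 22.4 RPM in LLC and 20.7 and 22.3 RPM in LLC-Chem tumors (log2 fold change -0.12, 95% interval -0.44 to 0.20, limma adjusted p = 0.508), and the zinc exporter gene Slc30a1, another gene switched on by MTF-1, had a log2 fold change of -0.23 (95% interval -0.69 to 0.22, adjusted p = 0.376). The zinc importer genes Slc39a14 and Slc39a10 were not called either (log2 fold change -0.31 and -0.13, limma adjusted p = 0.226 and 0.427).

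Markers of endothelial cells and neutrophils were lower in the LLC-Chem pools. The counts of markers called stand beside 13.5% of all genes called lower and 9.54% called higher. The summed level of 6 endothelial markers was 217 and 152 RPM in LLC tumors against 51.8 and 30.2 RPM in LLC-Chem tumors, with 6 of 6 (Pecam1, Cdh5, Kdr, Tie1, Vwf and Emcn) called lower. That of 5 neutrophil markers was 169 and 105 RPM against 39.6 and 16.6 RPM, with 3 of 3 tested (S100a8, S100a9 and Csf3r) called lower. Fibroblast markers summed to 23163 and 43902 RPM against 31953 and 29166 RPM, with 1 of 5 (Pdgfra) called higher and 2 (Col1a1 and Col1a2) lower. Adipocyte markers summed to 14.3 to 39.9 RPM, muscle markers to 2.35 to 5.35 RPM and keratinocyte markers to 2.20 to 4.45 RPM, with 1 of 3 (Cfd), 1 of 1 (Tnnt3) and 0 of 1 tested called higher. The epithelial and lung markers summed to 195 to 306 RPM, and neither of the 2 tested was called. The part of these cell types in the values of the antioxidant genes was not tested.

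The genes whose profile over the 4 pools was most like that of a member were sought by the Euclidean distance between centred log2(RPM + 0.5) values. Nearest to Mt1 were C030037D09Rik and Ncam1 (distances 0.05 and 0.09), and nearest to Mt2 were Far2 and Rpl21-ps8 (0.15 and 0.16). Ear2 (0.21) and Fcrls (0.25) were nearest to Hmox1, with 1.6 and 19.1 RPM in LLC-Chem pool 2 against 5.60 and 42.9 RPM in LLC-Chem pool 1. Unc93a and Gbp3 were nearest to Nqo1 (0.10 and 0.10). For the other 6 genes the distances were 0.045 or less, with 2700062C07Rik and Pde5a nearest to Nfe2l2 (0.017 and 0.018), Catsper2 and Arntl to Keap1 (0.014 and 0.018), Tmem198 and Pigm to Gclc (0.029 and 0.031), and Pelo and Klf5 to Gclm (0.018 and 0.020). Itpr1 and Dtx3l were nearest to Txnrd1 (0.030 and 0.045), and Ddx28 and Eif3d to Srxn1 (0.015 and 0.017). With 4 pools such likeness is a description of these libraries.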

How the data were processed

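Libraries from 4 tumor pools were sequenced. STAR (paired-end reads, GRCm38.p4) and HTSeq (Ensembl release 84) were used by the authors, who deposited RPM for 47729 genes. Tool versions and the use of strand are not given in the sources used here. The deposited RPM were whole multiples of 1 step (100% of nonzero values, tolerance 0.05 step), the steps summing to about 20000000 in every pool, and reads were recovered under an inferred scaling to that total with rounding up.

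Groups and replicate numbers came from the labels. limma 3.58.1 (lmFit, eBayes with trend) in R 4.3.3 was used on log2(RPM + 0.5) in place of the edgeR test of the study's methods, because RPM are not counts. The pseudocount understates changes of low genes. edgeR 4.0.16 and DESeq2 1.42.0 were run on the recovered reads as alternatives, beside other pseudocounts (0.1 and 1), scalings and filters, a replicate block, and leaving out each pool. Scripts were tested on simulated data. There limma called, in the right direction, 8 of 66 genes changed 1.5 times, 49 of 66 changed 2 times and 61 of 64 changed 4 times. Of its 133 calls, 15 were genes left unchanged. Summaries were made with Python 3.11.15, pandas 2.3.3 and matplotlib 3.10.9. Positions are from GENCODE M21, which holds 47310 (99.1%) of the identifiers.

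The members and lists were chosen with earlier results of these data known. Genes named are the 10 members, Rarres2, the called genes of the pathway and marker lists with up to 4 further examples per list in order of mean RPM, the 2 nearest profiles per member, and genes that overlap a member. Outside this rule, Mt3, Mt4, Epcam, Sftpc and Nkx2-1 were named after their values were seen. Marker genes not named enter only sums and counts.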

Additional observations from a re-analysis of the deposited data

How the results depend on the processing

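With other pseudocounts (0.1 and 1), TMM or median-of-ratios scaling, a mean of at least 5 RPM, edgeR or DESeq2, Mt1 and Mt2 stayed called higher. They were not called by limma without trend (log2 fold change 0.84 and 1.09, adjusted p = 0.0661 and 0.073, 0 of the 10 genes higher) or without a filter on low values (same fold changes, adjusted p = 0.148 and 0.16, 0 of 10), where limma called 1 gene of 26260 higher and 0 lower (3394 and 4003 had an unadjusted p under 0.05). Leaving out 1 pool left 0 of the 10 called, with log2 fold changes of 0.56 to 1.11 for Mt1 and 0.66 to 1.52 for Mt2, and turned the sign of Nfe2l2 (-0.048 to 0.19) and Hmox1 (-1.19 to 0.21). The lone pool of an arm is then assumed to vary like the others. DESeq2 and edgeR's likelihood ratio test each called 1 gene lower, Nqo1 (log2 fold change -0.82 and -0.81).

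Of the 86 pathway genes, DESeq2 called 9 higher and 27 lower, edgeR's likelihood ratio test called 8 higher and 24 lower, limma without trend called 3 higher and 13 lower, and 0 were called in either direction without a filter or with any pool left out (0 to 0). Over all genes, limma called 1306 higher and 1848 lower, edgeR's quasi-likelihood test on the recovered reads 1552 and 1609, its likelihood ratio test 1998 and 2296, and DESeq2 1877 and 2266, while leaving out a pool left 0 to 4 higher and 0 lower.

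The groups share replicate numbers, but same-numbered pools did not deviate together (correlation -0.14 across genes) and nothing in the labels ties them. With the replicate block, 1 of the 10 genes was higher (Mt1) and 0 lower, Mt2 having the same log2 fold change of 1.09 (adjusted p = 0.055), 3 pathway genes were higher and 11 lower, and 549 genes were higher and 1064 lower in all. With the numbers crossed between the groups, an alternative added after the data were seen, 2 of the 10 genes were higher and 2 lower (Nqo1 and Txnrd1, log2 fold changes -0.83 and -0.44), and 9 pathway genes were higher and 24 lower. The least covered of the 10 genes, Nqo1, had 327 to 765 reads per pool, and whether depth or the spread between pools limits the calls was not tested.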
